A study of Rattus norvegicus with 15 samples.

Results

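The genes described here encode the subunits and assembly factors of the mitochondrial respiratory chain and ATP synthase. They were chosen by symbol: every probe set (a group of short probes that reads 1 transcript) that the array annotation gives exactly 1 symbol beginning with Nduf, Sdha to Sdhd, Uqcr, Cox4 to Cox8 or Atp5. This gave 101 probe sets for 90 genes, of 31042 probe sets and 14217 genes with 1 symbol on the array, and each gene was represented by its probe set with the highest mean over all 15 arrays. RNA came from the ventral tegmental area, a midbrain region, of 7 rats that drank ethanol and 8 age-matched rats that drank water, with 1 Affymetrix array per rat. The series title places the rats in the alcohol-preferring (P) line, bred for high voluntary intake, and speaks of uncontrolled drinking, while the design text names both high- and low-drinking lines; the labels separate ethanol and water only. The labels give no allele or other agent, and age, sex and the time since the last drink are not stated. Th, the tyrosine hydroxylase that marks the dopamine neurons of this region, had a mean of 14.94 (SD 0.22, n = 7) log2 units in the ethanol group and of 14.80 (SD 0.26, n = 8) in the water group. All values are log2 expression values, so a difference of 0.1 is a small one. Whether ethanol and water rats differed was tested with limma over all probe sets that were not dim.

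In the inner mitochondrial membrane, complex I (NADH dehydrogenase) and complex II (succinate dehydrogenase) pass electrons to coenzyme Q, complex III passes them to cytochrome c, and complex IV (cytochrome c oxidase) passes them to oxygen. Complexes I, III and IV pump protons, and ATP synthase uses the returning protons to make ATP. Most subunits are encoded in the nucleus and a few in mitochondrial DNA. Neurons rely on this chain for most of their ATP, and fast-firing neurons are known for a high content of it.

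The nuclear genes of the chain are known targets of nuclear respiratory factor 1 (NRF-1) and of the ETS-family factor GABP, so the promoters were searched for their motifs. RefSeq promoter windows of assembly GRCr8, each running from 250 bases before to 50 after the first listed start of a gene, were matched for 82 of the 90 genes. The inner letters of the NRF-1 motif, CGCATGCG, which read the same on both strands, were found in 8 of the 82 (9.76%) and in 1.81% of all 27457 windows. Its longer form, with a G before and a C after these letters and so contained in the same windows, was in 5 of the 82 (6.10%), against 0.932% of all windows. An ETS motif, CCGGAAG on either strand, was in 25 of the 82 (30.5%), against 9.22% of all windows. The cyclic AMP element TGACGTCA was in 3 members, or 3.66%, against 1.91%. CCAAT on either strand was in 35.4% of members and 37.7% of all windows. The median GC content was 56.0% in members and 52.3% in all windows, and its part in these shares was not tested. A match of letters is a description and not a site shown to be bound. The 4 stretches below are examples, from ATP synthase genes (Atp5me and Atp5po), a complex III gene (Uqcrc1) and a complex I assembly factor (Ndufaf4). Each covers 80 bases upstream of the start, read 5′ to 3′ on the strand of the gene, with the NRF-1 letters in capitals. In Atp5me (chr14:1464749-1464828, plus strand) they begin 75 bases before the start, in Atp5po (chr11:44657498-44657577, minus strand) 58, in Uqcrc1 (chr8:118468143-118468222, plus strand) 38 and in Ndufaf4 (chr5:43401602-43401681, plus strand) 157.
Atp5me: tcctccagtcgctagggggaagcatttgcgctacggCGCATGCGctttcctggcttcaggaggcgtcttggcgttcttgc
Atp5po: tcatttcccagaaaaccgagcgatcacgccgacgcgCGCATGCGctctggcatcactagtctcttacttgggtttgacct
Uqcrc1: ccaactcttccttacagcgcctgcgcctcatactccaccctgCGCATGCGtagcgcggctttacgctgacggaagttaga
Ndufaf4: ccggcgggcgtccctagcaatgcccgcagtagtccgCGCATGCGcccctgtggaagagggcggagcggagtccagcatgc

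No respiratory chain or ATP synthase gene passed the test between ethanol and water rats. Of the 90 genes, 86 had a chosen probe set with a mean of at least 6.94 log2 units, the 40th percentile of the array, and were tested among 18625 probe sets. Of these 86 genes, 0 had a Benjamini-Hochberg adjusted p below 0.05 in limma, against 0.929% of all tested probe sets (0.387% higher and 0.542% lower in ethanol rats), and the smallest adjusted p was 0.175. At an unadjusted p below 0.05 there were 2 members (2.33%), Sdhaf2 and Cox7a1, against 12.1% of all tested probe sets. The differences were small and leaned one way. Means were lower in ethanol rats for 76 of the 86 (88.4%), against 46.7% of all tested probe sets, and the median difference was -0.037 log2 units, against 0.0062 over all of them. Members share rats and move together between rats, as described below, so the 76 are not independent observations. The groups overlapped in all 86 genes, and 0.623% of all tested probe sets did not overlap. The difference was under 0.1 log2 units in size for 80 genes. The other 6 were Ndufaf7, Sdhaf2, Cox7a1, Cox7b and Cox8b, lower in ethanol rats on average, and Ndufa4l2, higher on average. The 95% interval lay within 0.2 log2 units either side of 0 for 73 of the 86, and within 0.3 for all except Cox8b and Ndufa4l2. It lay within 0.15 for 52 and within 0.1 for 11. For the other 75 a difference of 0.1 in size was therefore not excluded. In bulk tissue, fewer cells of a type and less RNA per cell cannot be told apart.

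**Figure D1:**
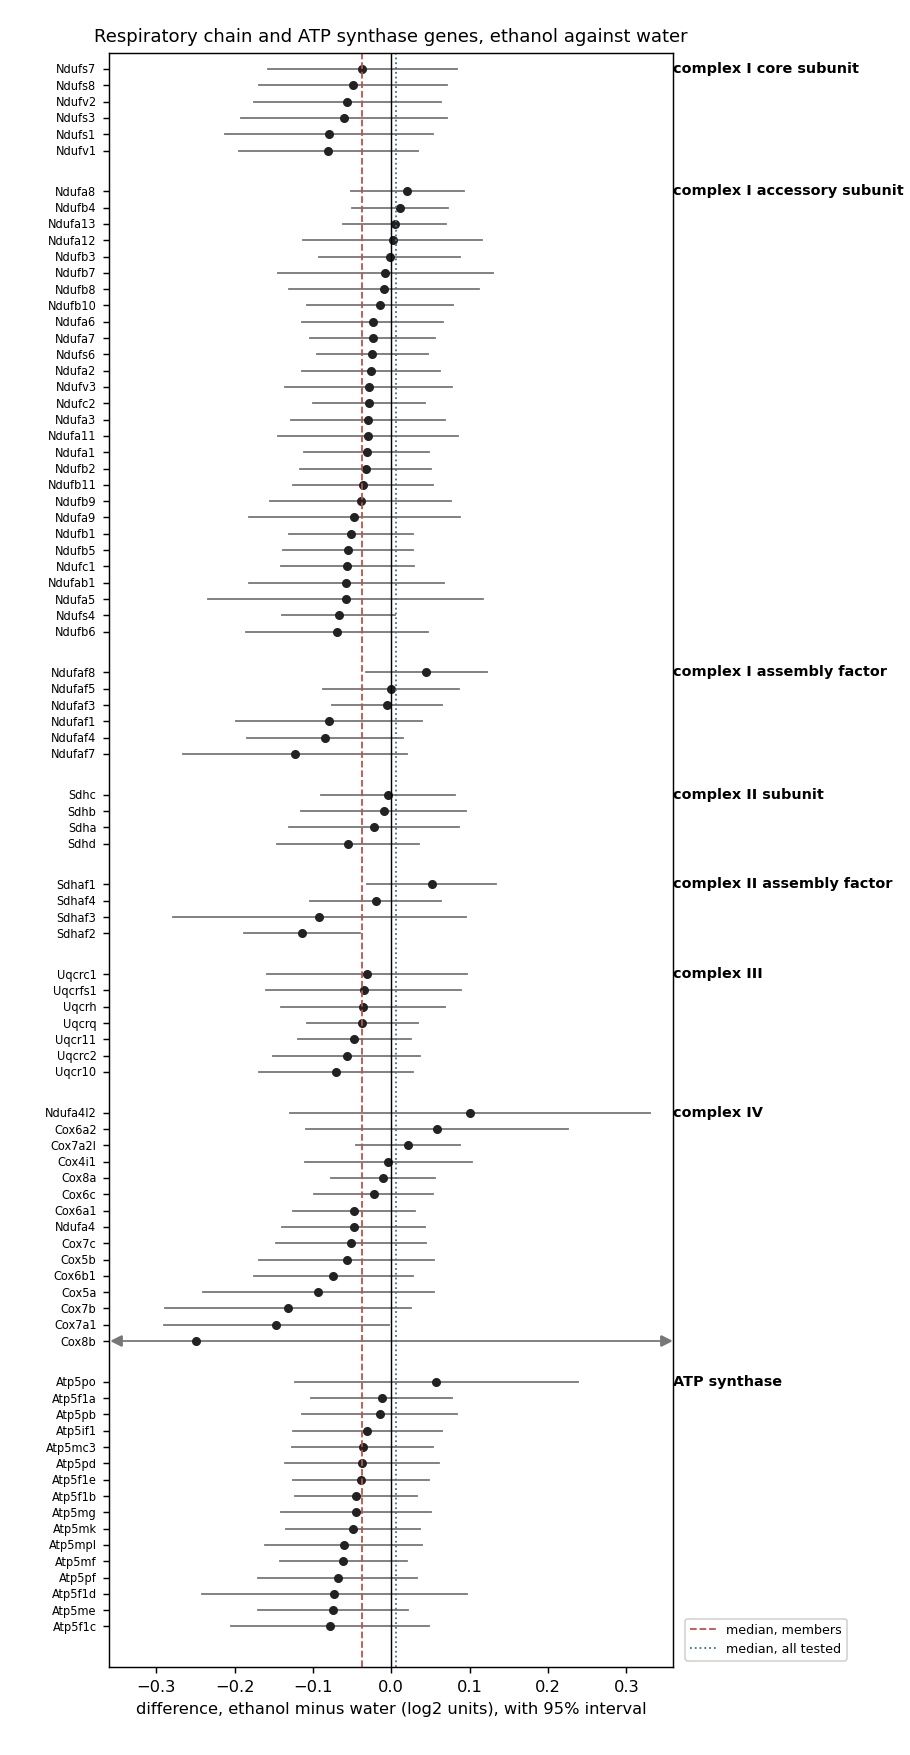
Each row is 1 of the 86 tested genes, grouped by complex, with its difference (ethanol minus water, log2 units, horizontal axis) as a point and the 95% interval from limma as a line; the dashed line is the members' median (-0.037) and the dotted line that of all tested probe sets (0.0062). The intervals of Sdhaf2 and Cox7a1 alone leave out 0, none of the 86 passed after adjustment, and the arrowheads mark the interval of Cox8b, which runs beyond the axis.

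In complex I, none of the 40 tested genes passed. All 6 measured core subunits, among them those that carry the flavin and iron-sulphur clusters, had lower means in ethanol rats. Their median difference was -0.058 log2 units. Ndufv1, the flavin-binding NADH-oxidizing subunit, had the largest difference of the 6: its lowest, median and highest values were 12.18, 12.31 and 12.34 in ethanol rats and 12.16, 12.34 and 12.54 in water rats. The ethanol values lay inside the water range, and all 7 ethanol rats were below the water mean (log2 -0.080, SE 0.054, adjusted p = 0.581). Ndufs1, the largest iron-sulphur subunit, had means of 12.45 (SD 0.081, n = 7) with ethanol and 12.53 (SD 0.15, n = 8) with water (log2 -0.079, SE 0.063, adjusted p = 0.642).

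For the accessory subunits of complex I, which surround and stabilize the core, the median difference was -0.029 over 28 genes, with 24 lower on average and a range from -0.069 for Ndufb6 to 0.020 for Ndufa8. Ndufs4, needed for late assembly and mutated in Leigh syndrome, had the smallest p of the class. It ran from 10.71 through a median of 10.74 to 10.80 in ethanol rats and from 10.73 through 10.83 to 10.90 in water rats. All 7 ethanol rats lay below the water mean, but both groups held values near 10.73 (log2 -0.067, SE 0.034, adjusted p = 0.451).

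Among the 6 complex I assembly factors, which help to build the complex and are not part of it, the median was -0.042. It was -0.0051 over the 5 that remained with the filter at the 60th percentile. Ndufaf7, a methyltransferase that modifies a core subunit, had means of 9.40 (SD 0.11, n = 7) with ethanol and 9.52 (SD 0.16, n = 8) with water (log2 -0.12, SE 0.067, adjusted p = 0.488). A second tested probe set of Ndufaf7 differed by -0.065 (SE 0.060). Ndufaf4, one of the genes shown above with the NRF-1 letters, was at -0.084 (SE 0.047, adjusted p = 0.492), while Ndufaf8 was at 0.045 (SE 0.036).

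None of the 4 complex II subunits passed, and their median difference was -0.016 log2 units. Sdha, the flavoprotein that oxidizes succinate, had means of 12.54 (SD 0.048, n = 7) with ethanol and 12.56 (SD 0.13, n = 8) with water (log2 -0.022, SE 0.051, adjusted p = 0.896). Sdhb, the iron-sulphur subunit, differed by -0.0097 (SE 0.050). Sdhd, a membrane anchor, had the largest difference (-0.055, SE 0.043), and its second tested probe set was at -0.11 (SE 0.050, unadjusted p = 0.0434 from limma).

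Sdhaf2 had the smallest p of all members. It attaches the flavin to Sdha, and its probe set read 10.80 at the lowest, 10.84 at the median and 10.91 at the highest in ethanol rats, against 10.82, 10.98 and 11.03 in water rats. All 7 ethanol rats were below the water mean, and water rat 3, at 10.82, was the only water rat below the ethanol maximum; water rat 1, at 10.909, lay just above that maximum of 10.907. The log2 difference was -0.11 (SE 0.035, 95% interval from -0.19 to -0.039, 0.924 of the water level), with an unadjusted p of 0.00505 and an adjusted p of 0.175 in limma. Over the alternatives the adjusted p ran from 0.0616, without water rat 3, to 0.536, with the mean of its 2 tested probe sets. The second, dimmer probe set differed by -0.041 (SE 0.066). Sdhaf1, which protects the iron-sulphur clusters of Sdhb, was higher on average in ethanol rats (0.051, SE 0.039, adjusted p = 0.623).

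**Figure D2:**
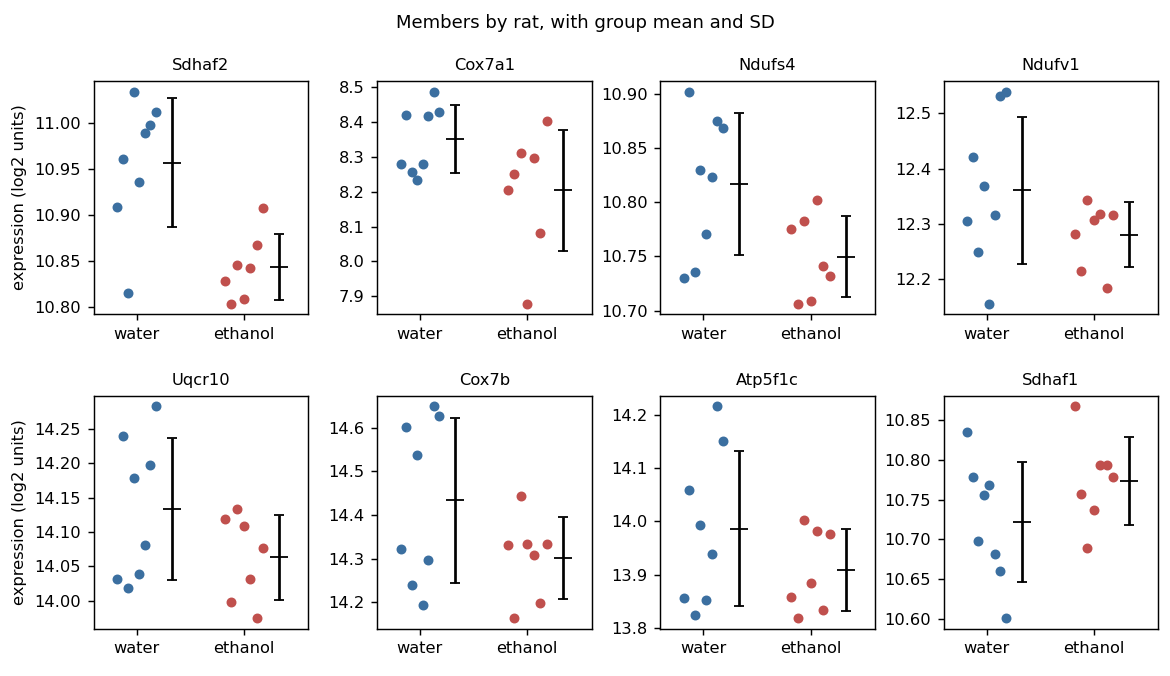
Log2 expression (vertical axis, a separate scale for each gene) of 8 members in each water rat (blue, n = 8) and ethanol rat (red, n = 7), with the group mean and SD as a bar in black. Groups overlap in every panel, least in Sdhaf2, where the ethanol rats lie between 10.80 and 10.91 and the water rats between 10.82 and 11.03.

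Complex III genes all had lower means in ethanol rats, and none of the 7 passed. The median difference was -0.037, with a narrow range from -0.071 to -0.031. Uqcr10, a small subunit, had the largest: 13.97, 14.08 and 14.13 (lowest, median, highest) in ethanol rats against 14.02, 14.13 and 14.28 in water rats (log2 -0.071, SE 0.046, adjusted p = 0.574). All 7 ethanol rats lay below the water mean. Uqcrfs1, the Rieske iron-sulphur protein, differed by -0.035 (SE 0.059) and Uqcrc1, a core protein, by -0.031 (SE 0.061). The symbol rule leaves out Cyc1, also a subunit of this complex, which is counted with the cytochrome c and coenzyme Q genes below. It differed by -0.0945 (SE 0.069), more than any of the 7.

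Complex IV had the widest range of differences among its members, from -0.25 for Cox8b to 0.10 for Ndufa4l2. None of the 15 tested genes passed, 12 had lower means in ethanol rats, and the median was -0.048. Ndufa4 and Ndufa4l2 were placed here: Ndufa4 is now known as a subunit of this complex despite its name, and Ndufa4l2 is a hypoxia-induced relative of it. Most ubiquitous subunits had differences under 0.1 in size: Cox4i1 was at -0.0037 (SE 0.050), Cox6a1 at -0.047 (SE 0.037), Cox6b1 at -0.074 (SE 0.048), Cox8a at -0.010 (SE 0.032) and Ndufa4 at -0.048 (SE 0.043). Cox5a was at -0.093 (SE 0.070), on a probe set of moderate brightness (9.54 over all arrays). A brighter probe set shared by Cox5a and another locus was at -0.057 (SE 0.061). Cox7b, a small membrane subunit, ran from 14.16 to 14.44 (median 14.33) in ethanol rats and from 14.19 to 14.65 (median 14.43) in water rats. Its difference of -0.13 (SE 0.074, adjusted p = 0.496) was smaller than the range within either group.

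The 3 isoforms known from heart and skeletal muscle, Cox7a1, Cox6a2 and Cox8b, were dim but above the filter. Cox7a1 had values of 7.88, 8.25 and 8.40 (lowest, median, highest) in ethanol rats and 8.24, 8.35 and 8.49 in water rats. Its mean was 0.903 of the water level (log2 -0.15, SE 0.068, unadjusted p = 0.0462, adjusted p = 0.405 in limma), and 6 of 7 ethanol rats were below the water mean. Ethanol rat 5, at 7.88, lay below the others. Without it the difference was -0.092, with an unadjusted p of 0.113 and an adjusted p of 0.534 in limma. Cox6a2 was at 0.058 (SE 0.079). Outside the muscle isoforms, Ndufa4l2 was at 0.10 (SE 0.11). The relative Cox7a2l, which helps to join complexes III and IV, was at 0.021 (SE 0.031). Cox4i2, Cox6b2, Cox7b2 and the pseudogene Cox6c-ps1 had means from 5.23 to 6.04 over all arrays, under the filter, and were not tested. Of the skeletal and heart muscle markers, only Acta1 passed the filter (1 of 5), while Ckm was at 5.28 and 5.23 and Mb at 4.91 and 4.96 in ethanol and water rats.

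Cox8b, another muscle isoform of this complex, varied more between rats than any other member. In ethanol rats it was 6.16, 6.42, 7.54, 7.13, 7.63, 6.19 and 7.46 for animals 1, 2, 4, 5, 6, 7 and 8. In water rats it was 5.96, 8.24, 5.93, 7.17, 6.28, 7.67, 8.49 and 7.72 for animals 1 to 8. Both groups held rats under 6.5 and rats above 7, and the lowest and highest values were both from water rats. Its range was 2.56 log2 units, against a median range of 0.30 over the 86 members, and only 36 of the 18625 tested probe sets had a larger SD over the 15 rats. The group difference was within this spread (log2 -0.25, SE 0.40, adjusted p = 0.840).

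ATP synthase genes had a median difference of -0.045, 15 of 16 were lower on average in ethanol rats, and none passed. Atp5f1c, the central rotating stalk of the catalytic head, had the largest difference, with 13.82, 13.88 and 14.004 (lowest, median, highest) in ethanol rats against 13.82, 13.97 and 14.22 in water rats (log2 -0.078, SE 0.060, adjusted p = 0.631). The catalytic subunit Atp5f1b differed by -0.045 (SE 0.037) and its partner Atp5f1a by -0.012 (SE 0.042). Atp5if1, the inhibitor that blocks reverse running of the enzyme, differed by -0.030 (SE 0.045), and Atp5mc3, a gene for the membrane ring, by -0.037 (SE 0.043). Atp5po, the stalk subunit that joins head and base, was the exception in sign at 0.057 (SE 0.085). The 8 genes with the NRF-1 letters had a median difference of -0.038, and the 72 other tested genes with a promoter window one of -0.037. For the ETS motif both medians were -0.037, over 25 genes with it and 55 without.

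Differences between single rats were larger than the difference between the groups, and they ran through all complexes together. The deviation of each rat from the mean of the 15 was averaged over the 86 genes. Among water rats it was 0.15 in rat 8, 0.13 in rat 2 and 0.10 in rat 7, and it was 0.024 in rat 4, 0.0033 in rat 6, -0.058 in rat 1, -0.088 in rat 5 and -0.11 in rat 3. Among ethanol rats it ran from -0.085 in rat 2 to 0.033 in rat 4, with a median of -0.027. The group means were -0.021 ± 0.046 (SD, n = 7) and 0.019 ± 0.099 (SD, n = 8), a difference of -0.040 within a range over all rats of 0.25 log2 units. Of the 8 water rats, 3 lay above the ethanol range, 2 below it and 3 inside it. Of the 86 genes, 40 had their highest value in water rat 8, 25 in water rat 2 and 9 in water rat 7. The lowest value fell in water rat 3 for 30 genes, in water rat 5 for 21 and in ethanol rat 2 for 13. An ethanol rat held the highest value of 5 genes and the lowest of 25.

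**Figure D3:**
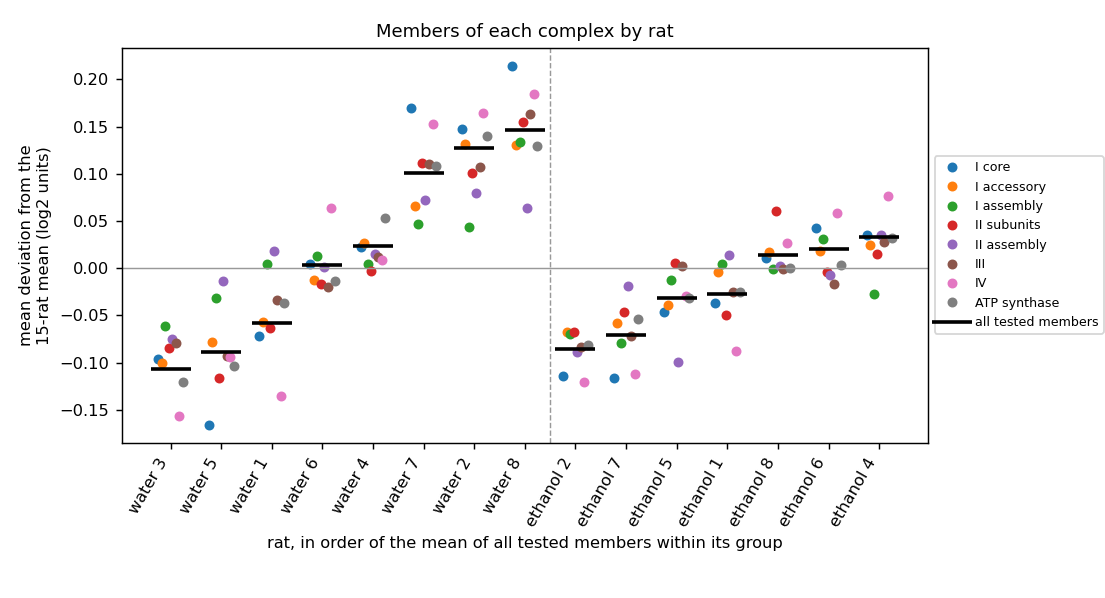
Mean deviation from the 15-rat mean (log2 units, vertical axis) of the tested members of each complex (coloured points) and of all 86 (black bar) in each rat, water on the left and ethanol on the right. The complexes lie together within a rat, water rats 7, 2 and 8 stand highest, and water rat 3 and ethanol rat 2 are the lowest of their groups.

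All classes shared this order at the top. Water rats 2, 7 and 8 were the 3 highest rats in each of the 8 classes. Core subunits of complex I had the widest range, from -0.17 in water rat 5 to 0.21 in water rat 8, and complex II assembly factors the narrowest, from -0.099 in ethanol rat 5 to 0.080 in water rat 2. In water rat 8 the median deviation of all tested probe sets was -0.027. For those with a mean of 11 or more, where 70 of the 86 members lie, it was -0.0059. The processing of the deposited values gives all arrays one intensity distribution, which holds such medians close together. They therefore cannot show whether RNA levels as a whole were raised in a rat. The spread of the members was close to that of other bright probe sets. Their median SD over the 15 rats was 0.085, against 0.084 for all tested probe sets with a mean of 11 or more.

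Neurofilament and other markers of fast-firing neurons followed the same order of rats. The list held Nefh, Nefm, Nefl, Pvalb and Kcnc1 as tested genes (5 of 6 listed), and its mean ran from 11.45 to 13.45 in ethanol rats and from 11.31 to 13.87 in water rats. Its deviation was 0.96, 1.14 and 1.14 in water rats 2, 7 and 8. It was -1.22, -1.07 and -1.41 in water rats 1, 3 and 5, and -0.84 and -1.28 in ethanol rats 2 and 7. The 3 highest rats and the 5 lowest rats were those of the respiratory genes, in 3 of 3 and 5 of 5. This match was not particular to these markers. It was also 3 of 3 and 5 of 5 for the first principal component of all tested probe sets and for the biogenesis regulators below. The tricarboxylic acid cycle list matched in 3 of 3 and 4 of 5. Nefh, the heavy neurofilament chain, read 15.18 in water rat 7 and 11.85 in water rat 5. Cox8b followed too, at 8.49 and 6.28 in those rats. Dopamine neuron markers did not: their mean (7 of 8 listed genes tested) was lowest in water rat 8 (-0.51) and 0 of its 3 highest rats were shared. Between the groups, all 7 had higher means in ethanol rats and 0 passed, with differences from 0.11 to 0.21 and a median of 0.16, opposite in sign to that of the respiratory genes. The list mean ran from 13.07 to 13.73 in ethanol rats and from 12.81 to 13.58 in water rats. With the mean of the fast-firing markers as a covariate, a setting chosen after the data were seen, the median SE of the 86 genes fell from 0.046 to 0.033, the median difference was -0.027, 69 were lower and 0 passed (smallest adjusted p = 0.111, Sdhaf2).

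**Figure D4:**
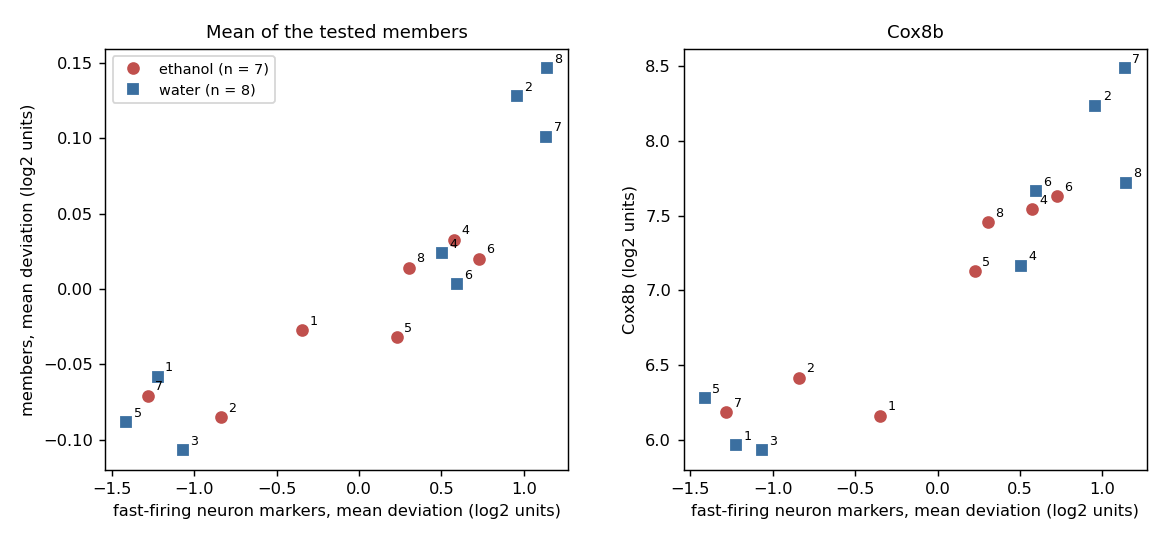
The mean deviation of the 86 tested members (left, log2 units) and the expression of Cox8b (right, log2 units) against the mean deviation of the 5 fast-firing neuron markers in each rat, red for ethanol (n = 7) and blue for water (n = 8), with animal numbers. Both rise from the rats on the left, among them water rats 1, 3 and 5, to water rats 2, 7 and 8 on the right.

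Some oligodendrocyte and microglial markers passed the test between the groups, where 0.929% of all tested probe sets did, and neither list shared the 3 highest rats (0 of 3 each). Oligodendrocyte markers (7 of 8 listed genes tested, Ugt8 and Cldn11 called lower) had a mean from 13.58 to 13.90 in ethanol and from 13.86 to 14.29 in water rats. Microglial markers (6 of 6 tested, Trem2 and Tyrobp called higher) ran from 9.14 to 9.48 in ethanol and from 8.77 to 9.13 in water rats. General neuron markers (6 of 6 tested, 0 called) ran from 12.22 to 12.38 in ethanol and from 12.07 to 12.43 in water rats. They shared 2 of the 3 highest and 2 of the 5 lowest rats with the respiratory genes. Their mean was highest in water rat 8 and lowest in water rat 5. The difference between 3′ and 5′ probe sets of the array's control transcripts, a sign of RNA integrity, was 1.15, 1.05 and 1.08 in water rats 2, 7 and 8 and lay between 0.99 and 1.20 in all rats. The part of these cell types and of RNA quality in the small downward shift was not tested.

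The size of the shift in the members' median varied with the rats included. Leaving out 1 rat at a time gave medians from -0.056, without water rat 5, to -0.022, without water rat 2, and -0.024 without water rat 8. Without water rats 7 and 8 together, a pair chosen with earlier results of these arrays known, it was -0.0055, with 50 of 86 genes lower. Both are among the 3 rats with the highest means over the members, so leaving them out lowers the water mean by construction, and no other pair was left out. The first principal component held 30.7% of the variance and was highest in water rats 7 and 8. With it added to the model, the median was 0.0021, 41 genes were lower and the median SE of the members was 0.033. The component was computed from the tested probe sets, members included. It therefore takes up part of their shared movement by construction and is not an independent check of the shift. No member passed under any of these settings.

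**Figure D5:**
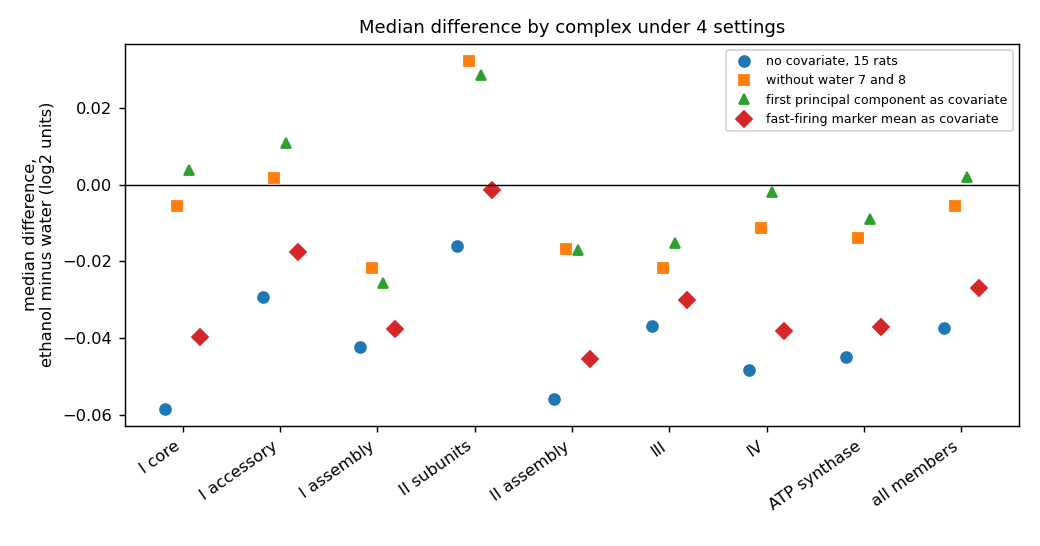
Median difference (ethanol minus water, log2 units, vertical axis) of the tested members of each complex and of all 86 under 4 settings: all 15 rats with no covariate, water rats 7 and 8 left out, the first principal component added, and the mean of the fast-firing markers added. Over all members the medians are -0.037, -0.0055, 0.0021 and -0.027, and the complex II and complex I accessory subunits are above 0 both with water rats 7 and 8 left out and with the component added, the complex I core subunits with the component only.

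Most lists of genes that work beside the chain leaned the same way, and none of their genes passed. The lists were drawn up by role. The list of the tricarboxylic acid cycle, which supplies NADH and succinate, also held pyruvate enzymes that feed the cycle (Pdha1, Pdhb, Pdhx and Pc). In this list, 16 of 16 tested genes had lower means in ethanol rats (median -0.048). Among them were Ogdh (-0.10, SE 0.052, adjusted p = 0.454), Pdhx (-0.085, SE 0.057) and the entry enzyme of the cycle, Cs (-0.048, SE 0.042). Carriers, porins and creatine kinases had a median of -0.066 over 13 genes, with the pyruvate carrier subunit Mpc2 at -0.12 (SE 0.064, adjusted p = 0.462), the aspartate-glutamate carrier Slc25a13 at -0.15 (SE 0.083) and the ATP/ADP exchanger Slc25a4 at -0.037 (SE 0.057). Cytochrome c and coenzyme Q genes were at a median of -0.015 over 17 genes, with Coq10b at -0.056 (SE 0.033) and Coq9 at -0.075 (SE 0.051), and no single-gene probe set of Cycs was among them. Genes of mitochondrial shape and fusion had a median of -0.039 over 13, of which 8 were lower. The fusion GTPases Mfn1 and Opa1 were at -0.099 (SE 0.039, adjusted p = 0.308) and -0.092 (SE 0.046), while their relative Mfn2 was at 0.039 (SE 0.034) and the fission factor Fis1 at 0.054 (SE 0.051).

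The remaining lists were not sharply set apart from these. Lower means were seen in 10 of 13 carriers, porins and creatine kinases and in 12 of 17 cytochrome c and coenzyme Q genes. They were also seen in 8 of 13 genes of shape and fusion, in 12 of 19 biogenesis regulators and in 1 of 4 uncoupling proteins. Of 33 other assembly factors, 21 had lower means in ethanol rats, and the median was -0.010. The largest differences were lower, with the complex IV assembly factors Pet100 at -0.12 (SE 0.066) and Cox14 at -0.11 (SE 0.061). The smallest p-values belonged to genes that were higher on average: Uqcc1, which assembles complex III, was at 0.093 (SE 0.032, adjusted p = 0.237) and Surf1, which assembles complex IV, at 0.078 (SE 0.029, adjusted p = 0.284), and both were above the water mean in 7 of 7 ethanol rats. Uncoupling proteins were at a median of 0.027 over 4 genes, with Slc25a30 at 0.058 (SE 0.057) and Ucp2 at 0.041 (SE 0.067). Of the 19 biogenesis regulators, which switch on the chain's genes or copy mitochondrial DNA, the median was -0.021, with the coactivator Pprc1 at 0.097 (SE 0.043, adjusted p = 0.379), the DNA polymerase Polg at -0.15 (SE 0.070), Nrf1 at 0.099 (SE 0.067, adjusted p = 0.581), Ppargc1a at -0.073 (SE 0.11) and Tfam at 0.023 (SE 0.028). Of the subunits encoded in mitochondrial DNA, COX1 and COX2 were read, at 16.30 and 16.21 in ethanol and 16.29 and 16.21 in water rats. These values lie at the upper end of the array's range, where differences are compressed, and differed by 0.013 and 0.0011.

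Near-identical gene copies limited a few names. A further 7 probe sets carry 2 symbols of which 1 fits the family names, such as Atp5mc1, Cox7a2, Uqcrb and Ndufs5, and are not counted as members. Their differences ran from -0.072 to 0.00030, and 0 passed (smallest adjusted p = 0.549). Where a member had 2 tested probe sets (6 genes), both gave the same sign in 4, and Ndufa7 and Ndufv3 gave opposite signs.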

How the data were processed

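Per the labels, 25 ng of total RNA went through 2 amplification cycles before biotin labelling. The deposited log2 values come from RMA, which the authors used per the submitters' processing notes. RMA corrects background, gives all arrays one intensity distribution and summarizes each probe set. The version of RMA is not stated. RMA also removes a shift common to most transcripts, and differences in dim and very bright probe sets are compressed. No sample is labelled as ethanol animal 3. All 15 columns were used, and 57 control probe sets were left out of tests.

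Probe sets with a mean at or above the 40th percentile (6.94) were fitted in limma 3.58.1 (R 4.3.3; lmFit, eBayes, two-sided, no covariate), with Benjamini-Hochberg adjustment over 18625 and a threshold of 0.05. Intervals are 95% intervals on 16.4 moderated degrees of freedom. Tested on simulated data for this comparison (18625 probe sets), the fit called 76.1% of true differences of 0.3 log2 units. The simulated noise was drawn separately for each probe set, unlike the shared movement between rats in the data. Smaller differences, such as those under 0.1 seen in most members, were not simulated. The number of arrays limits precision. Members and lists were chosen with earlier results of these data known, so lists are described and not tested. Named were members at an unadjusted p below 0.05, the largest difference of each class, genes fixed by role, tissue isoforms, and the 2 smallest p of each other list with 6 fixed genes. Ndufaf4, Ndufaf8, Ndufa8, Ndufa7, Ndufv3, Sdhaf1, Cox7b, Atp5po, Mfn2, Fis1, Pet100 and Cox14 were named after their values were seen. Entrez numbers of all 90 members were found in RefSeq. The alternatives were other filters, normalizations, variance models, array weights, covariates, probe set choices, the animal number as a block and left-out rats.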

Additional observations from a re-analysis of the deposited data

Results flagged for a closer look

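Of 74 sets of values examined, each a named member or class mean in 1 group, 1 held a rat that stood apart from the rest of its group by Dixon's 95% criterion: Cox8a, the ubiquitous small subunit of complex IV, read 14.34 log2 units in ethanol rat 2, below the next lowest ethanol rat at 14.41, a gap of 0.802 of the group's range. Chance alone marks about 1 group in 20. Ethanol rat 2 was also the lowest ethanol rat in the mean over all members.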

How the results depend on the processing

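No member and no gene of the other mitochondrial lists passed under any setting run. The count over all probe sets was 173, and ran from 100 (without ethanol rat 7) to 180 with 1 rat left out, with 102 without ethanol rat 8. It was 59 with the animal number as a replicate block. The count was 241 with the fast-firing covariate, 235 with the first principal component and 230 with array weights. The labels do not say whether equal numbers pair the rats. Same-numbered deviations correlated from -0.415 to 0.295, and 2 of 14 arrays correlated best with their own number. Such correlations cannot settle whether the rats were paired. With the block, 0 members passed and the median was -0.054. The block leaves out water rat 3, whose number no ethanol rat shares. Leaving out that rat alone gave the same median of -0.054 and a count over all probe sets of 130. Members at an unadjusted p below 0.05 numbered 1 to 6. Class medians moved by less than the spread between rats, but those of the complex II subunits (0.032) and complex I accessory subunits (0.0018) were above 0 without water rats 7 and 8. The median of the complex II subunits was already above 0 (0.0048) without water rat 7 alone or water rat 8 alone. Directions turned only in differences far from the threshold. Adding the first principal component, values were 0.20 for Cox8b, 0.028 for Sdha, 0.039 for Sdhb, 0.034 for Uqcrc1, 0.021 for Uqcrfs1, 0.046 for Cox4i1, 0.025 for Atp5f1a, 0.0031 for Atp5if1, 0.00050 for Cox8a and 0.0035 for Atp5mc3. Without water rats 7 and 8 they were 0.058 for Cox8b, 0.034 for Sdha, 0.035 for Sdhb, 0.039 for Uqcrc1, 0.029 for Uqcrfs1, 0.036 for Cox4i1 and 0.025 for Atp5f1a. Sdhb was at 0.0001 after quantile normalization, and with the fast-firing covariate (added after seeing the data) Sdhb was at 0.0048 and Cox4i1 at 0.011. With 1 rat left out, Atp5f1a ran from -0.034 to 0.0073, Cox4i1 from -0.030 to 0.017, Cox8a from -0.022 to 0.0047, Sdha from -0.050 to 0.0029, Sdhb from -0.034 to 0.0099 and Uqcrfs1 from -0.064 to 0.00090. The causes were not tested.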

Other observations

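Among the regulators of mitochondrial gene expression, the estrogen-related receptors stood out for their spread between rats and not for a group difference (they were singled out after their values were seen). Esrrg, a nuclear receptor known to drive oxidative metabolism genes, ran from 10.39 to 11.68 (median 11.16) in ethanol rats and from 10.13 in water rat 5 to 12.28 in water rat 7 (median 11.66). Esrrb ran from 7.05 to 8.10 in ethanol rats and from 7.16 in water rat 1 to 8.64 in water rat 7. Neither passed between the groups (log2 -0.32, SE 0.32, adjusted p = 0.716 for Esrrg, and -0.26, SE 0.24, adjusted p = 0.692 for Esrrb, limma). Tfam, which packages mitochondrial DNA, had an SD of 0.035 in ethanol and 0.033 in water rats.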
